A study of Mus musculus with 6 samples.

Results

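The potassium channel genes were taken as all rows of the deposited table whose Ensembl identifier belongs, in GENCODE M21, to a protein-coding gene with a symbol starting with Kcn, which gave 90 genes of the 18254 rows. RNA sequencing was run on the medial prefrontal cortex (mPFC) of male EGFP-*Shank3* transgenic (TG) mice, which overexpress the postsynaptic scaffold gene *Shank3*, and of their wild-type (WT) littermates, all on a C57BL/6J background and 10 to 12 weeks old. Each genotype had 3 libraries, numbered 1 to 3, and each library held RNA pooled from a pair of mice of the same genotype, so the spread between libraries is a spread between pools. The promoter of the transgene is not given in the sources used here, and endogenous and transgenic *Shank3* reads fall on the same row. The question put to these genes was whether the RNA of any channel subunit differed between the genotypes, and by how much it could have differed.

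Potassium channels let potassium leave or, for the inward rectifiers, enter the cell, and so set the resting potential, shorten the action potential and limit repetitive firing. Voltage-gated channels (Kv) are tetramers of pore-forming alpha subunits, to which silent subunits, cytoplasmic beta subunits, calcium-binding KChIPs or single-span KCNE proteins add. Inward rectifiers (Kir) and two-pore-domain channels (K2P) carry current near rest, and a further class opens on intracellular calcium or sodium. In cortex, fast-spiking interneurons are known for Kv3 channels, pyramidal neurons for Kv2, Kv4 and Kv7 channels, and astrocytes for Kir4.1.

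The values were normalized counts, that is, estimated counts per gene divided by a size factor of the library, and they summed to between 28363967 (TG-2) and 29447717 (WT-3) per library. The transgene checked the labels: *Shank3* was at 17469.8, 19003 and 16310.4 normalized counts in TG-1, TG-2 and TG-3 and 8374, 8173 and 6791 in WT-1, WT-2 and WT-3, with no overlap between the genotypes. Its TG minus WT difference was 1.18 (SE 0.10, 95% interval 0.94 to 1.42) on the log2(normalized count + 1) scale, with a Benjamini-Hochberg adjusted p of 0.0643 from limma and of 0.000437 with the replicate number as a block (4.46e-06 to 0.703 over all alternatives run). Summed markers of excitatory neurons spanned 157843 to 183749 normalized counts in TG and 152957 to 176516 in WT, and those of inhibitory neurons, astrocytes, microglia, oligodendrocyte precursors, endothelium and pericytes likewise overlapped. Of the single markers in these lists only *Slc17a7* did not overlap, at 42302 to 45669 in TG and 39217 to 40002 in WT. Of the 5 excitatory markers 3 were higher and 2 lower in TG. Among all genes tested 6.02% did not overlap. The 8 markers of myelinating oligodendrocytes were all lower on average in TG, with sums of 75479.9 to 98062 against 112379 to 114466, and the 4 leptomeningeal markers were all higher on average, with sums of 2815 to 3450 against 2414 to 2747. No marker was at 0 in any library, and in bulk tissue fewer cells of a type and less RNA per cell cannot be told apart.

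Of the 90 genes, 83 averaged 5 or more normalized counts across the libraries and were tested, 71 of them averaging 50 or more, and 36 averaged 1000 or more. To compare genes with each other, each value was divided by the length of the merged exons in kilobases. On this level per kilobase (kb) the 83 genes spanned 999-fold, from *Kcnab2* at 1885 down to *Kcnh8* at 1.89 normalized counts per kb, and the 10 highest held 42.7% to 46.3% of the family sum in each library. The order at the top was *Kcnab2* (1885), *Kcnj4* (1494), *Kcnj9* (1342), *Kcna1* (1232), *Kcnj10* (1111), *Kcnip3* (1040.0), *Kcnk1* (1023), *Kcnf1* (952) and *Kcnh3* (914). *Kcnab2* was first in all 6 libraries, and *Kcnj9* lay above *Kcna1* in all 6, whereas *Kcnip3* and *Kcnk1* exchanged places in 3 of the 6. These genes mixed pore subunits of Kv, Kir and K2P channels with a beta subunit, a KChIP and a silent subunit. Per kb of the longest transcript instead of the merged exons, 9 of the highest 10 stayed among the highest 10.

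**Figure D1:**
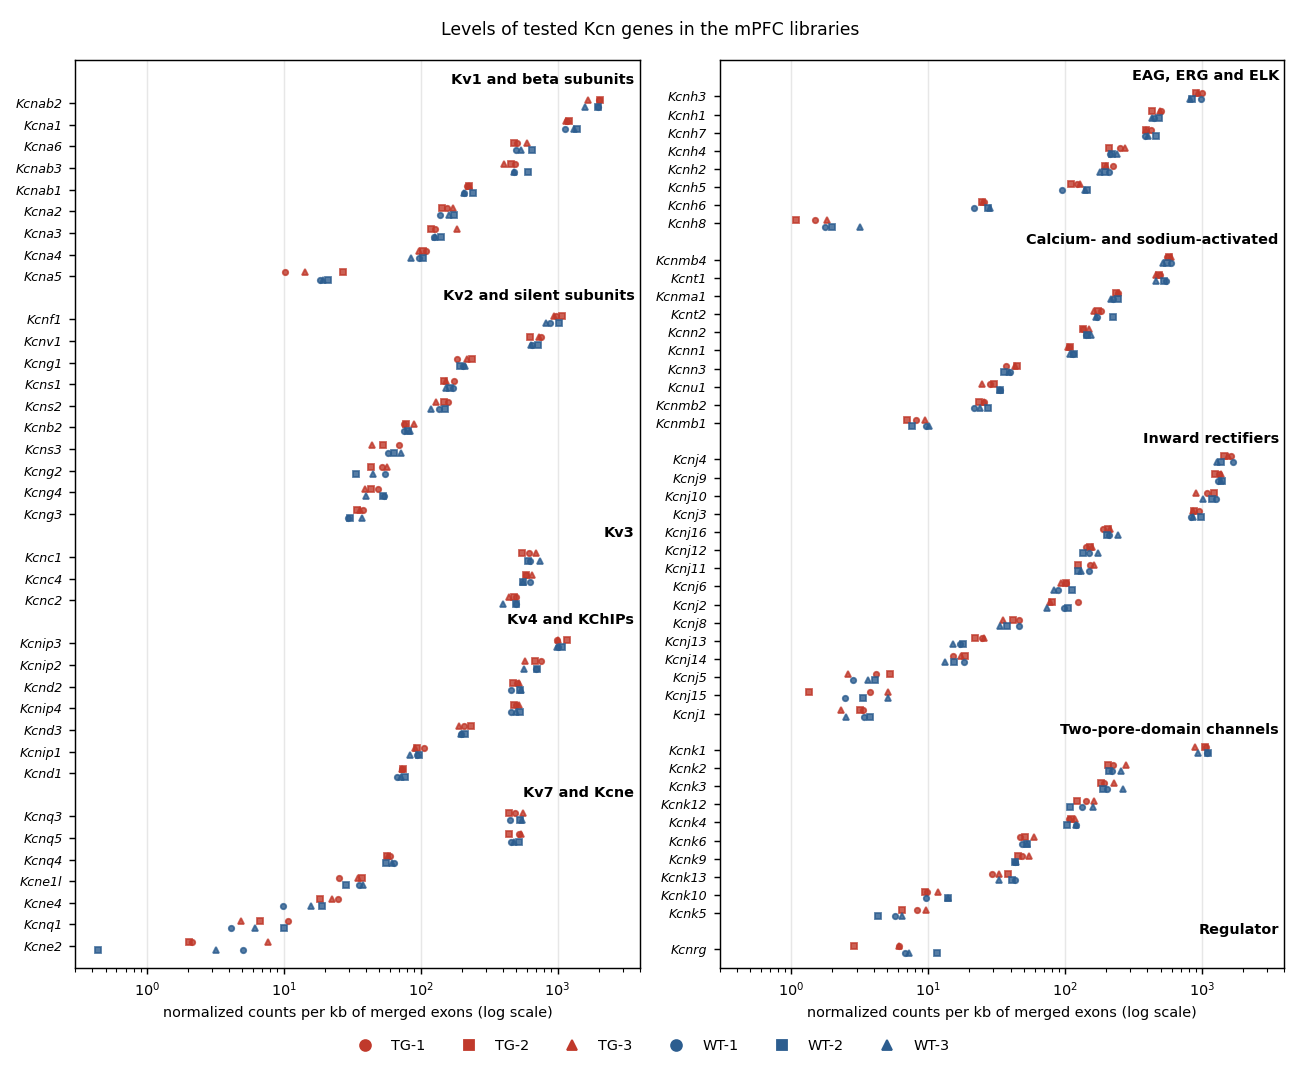
Level of tested Kcn genes in each library, in normalized counts per kb of merged exons on a log axis, by subfamily; red marks TG, blue marks WT, and the shape gives the library number. For most genes the 6 points lie close together against the 999-fold span of the family, and they spread widest for the lowest genes such as *Kcne2* and *Kcnj15*.

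Summed per kb, the family held 26480.2 to 27361 normalized counts per kb in the TG libraries and 25689 to 27818 in the WT libraries. Inward rectifiers made up 20.5% to 21.9% of that sum, Kv1 with its beta subunits 17.1% to 19.1%, and Kv4 with the KChIPs 11.2% to 12.1%. Each of the other subfamilies held between 6.64% and 10.5%, and *Kcnrg*, a regulator of Kv assembly, the small rest. The genotypes overlapped in the sums of 8 of the 9 channel subfamilies. The K2P sum was the exception, at 1874, 1837 and 1848 in TG and 1906, 1881 and 1881 in WT, so that the nearest libraries were 1874 and 1881. As a share of the family, the K2P genes overlapped, at 6.85%, 6.94% and 6.95% in TG and 7.13%, 6.76% and 7.32% in WT. On that scale Kv2 with the silent subunits did not overlap, at 10.3%, 10.4% and 10.5% in TG and 9.61%, 10.1% and 9.86% in WT. Sums and shares were not tested, and an exact permutation test of 3 against 3 libraries cannot go below p = 0.1.

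No potassium channel gene passed the test between the genotypes: 0 of 83 had an adjusted p below 0.05 in limma's moderated test over 16714 genes, where 0.0% of all genes did. This limma test called no gene, not even *Shank3* (adjusted p 0.0643). The study, which tested estimated counts with DESeq2 and an empirically estimated null, did report differentially expressed genes in this tissue. The adjusted p of every member rounded to 1.00. At an unadjusted p below 0.05 the count was also 0 of 83, beside 2.01% of all genes. With the replicate number as a block no member passed either, where 0.00598% of all genes did, and 3 of 83 (*Kcnf1*, *Kcnab3* and *Kcnk9*) had an unadjusted p below 0.05, beside 4.98% of all genes. At the same unadjusted threshold, limma without a mean-variance trend gave 3 of 83 beside 2.9% of all genes, a term for the libraries numbered 3 gave 2 beside 4.29%, and an empirical null gave 7 beside 7.27%. By sign alone, 46 genes were higher and 37 lower in TG, with a median log2 difference of 0.02 against -0.0037 over all genes tested.

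The intervals show how large a difference these 6 libraries could have missed when limma had genotype as its only term. The 95% interval lay within 1.2-fold in both directions for 17 genes, within 1.5-fold for 65 and within 2-fold for 74 of the 83. All 65 were among the 71 genes averaging 50 or more, whose median SE was 0.11 and whose differences reached at most 0.30 in size. The 12 genes with means of 5 to 50 had a median SE of 0.35, a median coefficient of variation between libraries of 24.8% against 9.38%, and no interval within 1.5-fold. Of those 12 intervals 4 lay within 2-fold. None of these counts allows for a pairing of libraries by number. Blocking by number changed the SE in both directions. It was smaller for *Kcnab2* (0.05 against 0.12) and larger for *Kcnj13* (0.26 against 0.23). Intervals from the blocked fit were not counted. The sign of the difference turned for 42 of the 83 genes (50.6%) in at least 1 of the fits that left out a single library, against 60.9% of all genes. A p that misses the threshold does not show that the genotypes express a gene alike.

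**Figure D2:**
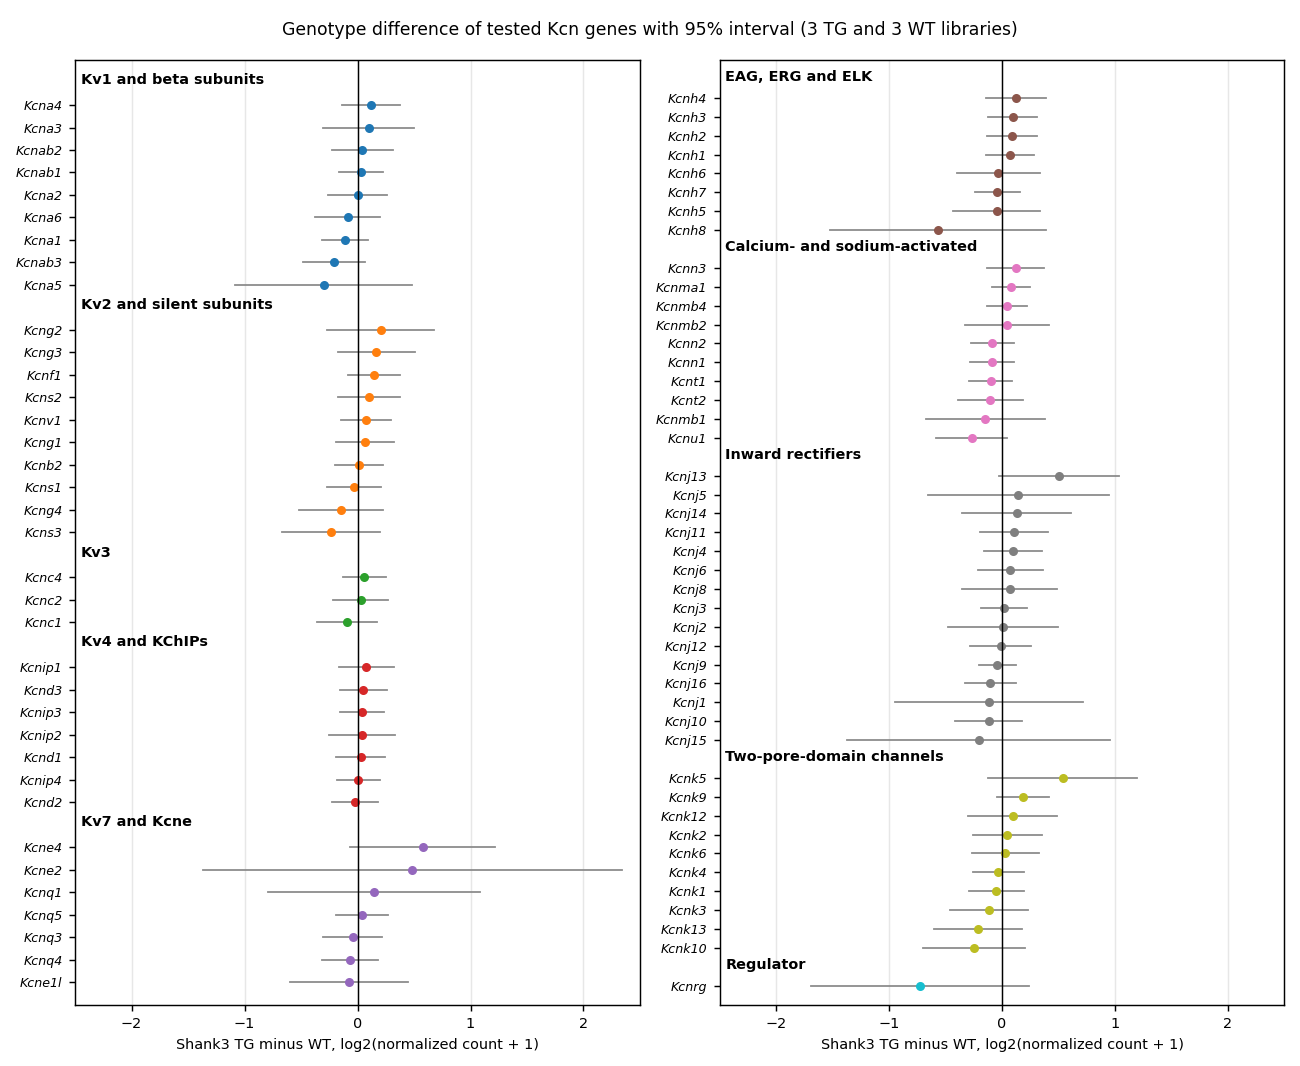
TG minus WT difference of tested Kcn genes on the log2(normalized count + 1) scale, as points with 95% intervals from limma (3 TG and 3 WT libraries), by subfamily. All intervals shown cross 0, and the widest belong to *Kcne2*, *Kcnj15*, *Kcnrg*, *Kcnh8* and *Kcnq1*.

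In 4 of the 83 genes (4.82%) every TG library lay above, or every one below, all WT libraries, beside 6.02% of all genes tested. These were *Kcnj13* and *Kcnk9*, higher in TG, and *Kcnu1* and *Kcnrg*, lower in TG, whose genes lie at chr1:87386363-87394729, chr15:72501089-72546340, chr8:25849623-25937939 and chr14:61607457-61612826 of GRCm38. Compared between libraries of the same number, 20 genes (24.1%) had the same direction at all 3 numbers, 8 higher and 12 lower in TG, beside 24.8% of all genes. Both shares lay near those of the transcriptome.

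Among Kv1 channels and their beta subunits, 9 of 11 genes were tested, 4 higher and 5 lower in TG. *Kcnab2* encodes Kvbeta2, a cytoplasmic subunit that takes Kv1 channels to the axon, and was at 11295, 11337 and 9359 normalized counts in TG-1, TG-2 and TG-3 and 11084, 11070.2 and 8931 in WT-1, WT-2 and WT-3. Both libraries numbered 3 lay below the other 4, and TG lay slightly above WT at each number, by 0.04 (95% interval -0.23 to 0.31) in the fit, a value that turned to -0.06 without WT-3. *Kcna1*, the Kv1.1 subunit of axons and the highest pore subunit of the group, was at 5628, 5775 and 5549 normalized counts across TG and 5396, 6624 and 6360.0 across WT. Its difference was -0.11 (95% interval -0.32 to 0.10), and the genotypes overlapped through WT-1, without which it was -0.20, against -0.05 without WT-2. *Kcna2*, which joins Kv1.1 in axonal channels, averaged 1874 ± 179.7 in TG and 1877 ± 223 in WT (SD, n = 3 each), with a difference of -8.8e-05 (95% interval -0.26 to 0.26). *Kcna6* (Kv1.6) had a difference of -0.09 (95% interval -0.37 to 0.20), but 39.6% of its exon bases are shared with an opposite-strand transcript. The smallest p of the group belonged to *Kcnab3*, which encodes the Kvbeta3 subunit, at 1409, 1305 and 1174 normalized counts in TG-1, TG-2 and TG-3 and 1381, 1753 and 1374 in WT-1, WT-2 and WT-3. WT-2 stood above the other 5 libraries, so that the difference of -0.21 (SE 0.12, 95% interval -0.49 to 0.07) shrank to -0.09 without it. The least expressed tested member, *Kcna5*, had the widest spread of the group, with 49.5 ± 25.5 in TG and 56.3 ± 3.38 in WT and a difference of -0.30 (95% interval -1.08 to 0.48) that was -0.68 without TG-2 and 0.0085 without TG-1.

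Kv2 channels are the delayed rectifiers of neuronal somata, and the silent subunits (*Kcnf1*, *Kcng*, *Kcns* and *Kcnv1*) form no channel alone but join Kv2 tetramers. All 11 genes were tested, with 8 higher and 3 lower in TG. The highest RNAs of the group encoded silent subunits: *Kcnf1* (Kv5.1) stood at 952 and *Kcnv1* (Kv8.1) at 688 normalized counts per kb, against 80.6 for the pore subunit *Kcnb2* (Kv2.2). *Kcnf1* was at 4687, 5134 and 4539.8 normalized counts in TG-1, TG-2 and TG-3 and 4194, 4886 and 3917 in WT-1, WT-2 and WT-3. TG was above WT at each number, by 0.16, 0.07 and 0.21 on the log2 scale, although TG-1 and TG-3 lay below WT-2. The difference was 0.15 (SE 0.10, 95% interval -0.08 to 0.38), 0.08 without WT-3 to 0.24 without WT-2. The blocked limma fit gave an adjusted p of 0.922, with 0.735 to 1.00 over all alternatives run. *Kcnb2* averaged 1228 ± 112 in TG and 1217 ± 67.0 in WT, with 0.01 (95% interval -0.20 to 0.22) as the difference, and its libraries numbered 3 were the highest of each genotype. *Kcnv1* differed by 0.07 (95% interval -0.15 to 0.30) and *Kcns3*, a subunit known from parvalbumin interneurons, by -0.24 (95% interval -0.67 to 0.19). For 9 of the 11 genes the interval stayed within 1.5-fold.

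The Kv3 genes encode fast delayed rectifiers that allow high firing rates, and all 4 were tested. *Kcnc1* (Kv3.1), *Kcnc4* (Kv3.4) and *Kcnc2* (Kv3.2) stood at 642, 597 and 469.7 normalized counts per kb. All 4 intervals lay within 1.5-fold, with 2 genes higher and 2 lower in TG. *Kcnc4* and *Kcnc2* differed by 0.06 (95% interval -0.13 to 0.25) and 0.03 (95% interval -0.21 to 0.27). *Kcnc1*, the member with the smallest p, was at 5844, 5216 and 6574 normalized counts in TG-1, TG-2 and TG-3 and 5996, 5714 and 7080.0 in WT-1, WT-2 and WT-3. TG was below WT at each number, with differences of -0.04, -0.13 and -0.11, while the libraries numbered 3 exceeded the other 4 in both genotypes. Its fitted difference was -0.09 (SE 0.11, 95% interval -0.36 to 0.17), smaller than the gap between the libraries of one genotype. It was -0.18 without TG-3 and -0.00039 without WT-3.

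Kv4 channels carry the dendritic A-type current, and KChIPs are calcium sensors that bind them and speed their recovery. This was the most tightly measured group: all 7 genes were tested, 5 intervals lay within 1.2-fold and all 7 within 1.5-fold. *Kcnip3* (KChIP3, also a transcriptional repressor known as DREAM) was the highest, at 3494, 4145 and 3591 normalized counts across TG and 3578, 3797 and 3523 across WT, and differed by 0.04 (SE 0.09, 95% interval -0.16 to 0.24). TG-2 and WT-2 were the high library of each genotype. Of the pore subunits, *Kcnd2* (Kv4.2) averaged 2585 ± 139 in TG and 2632 ± 225 in WT, a difference of -0.02 (95% interval -0.23 to 0.18). *Kcnd3* (Kv4.3) averaged 2019 ± 203 in TG and 1944 ± 67.1 in WT, a difference of 0.05 (95% interval -0.16 to 0.26). *Kcnip1*, an interneuron-enriched KChIP and the member with the smallest p, was at 658, 579 and 560.0 normalized counts across TG and 584, 599.7 and 518 across WT, a difference of 0.08 (SE 0.10, 95% interval -0.16 to 0.32) that was 0.0094 without TG-1. *Kcnip2* and *Kcnip4* differed by 0.04 (95% interval -0.25 to 0.33) and 0.01 (95% interval -0.18 to 0.20).

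Kv7 channels carry the M-current that holds neurons below threshold, and KCNE proteins modify Kv7 and other Kv channels. Of 10 genes 8 were tested, 4 higher and 4 lower in TG. *Kcnq3* (Kv7.3) and *Kcnq5* (Kv7.5), subunits of cortical M-channels, differed by -0.04 (95% interval -0.31 to 0.22) and 0.04 (95% interval -0.19 to 0.27). *Kcnq3* was at 7197, 6474 and 8234 normalized counts across TG and 6626, 7873 and 8050.2 across WT, with the libraries numbered 3 the highest of each genotype. By contrast, the *Kcne* genes were scarce. *Kcne4*, an inhibitory accessory subunit, was at 66.1, 48.6 and 59.5 normalized counts in TG-1, TG-2 and TG-3 and 26.3, 50.6 and 42.2 in WT-1, WT-2 and WT-3. TG-1 and TG-3 lay above all WT libraries and TG-2 did not, and WT-1 was low. The difference of 0.58 (SE 0.28, 95% interval -0.06 to 1.22) was the largest upward value of the 83 and ranged from 0.31 to 0.77 as single libraries were left out, the lower end without WT-1. *Kcnq1* (Kv7.1), the epithelial and cardiac member, averaged 30.4 ± 12.1 in TG and 27.7 ± 12.4 in WT, with an interval of -0.79 to 1.08. *Kcne2*, which is known from choroid plexus epithelium, was at 3.80, 3.57 and 13.6 normalized counts across TG and 8.90, 0.777 and 5.65 across WT, the widest interval of all at -1.37 to 2.34. The 4 choroid plexus markers (*Ttr*, *Folr1*, *Kl* and *Clic6*) summed to 202, 95.1 and 537 across TG and 74.6, 92.9 and 148 across WT. Most of the spread of the sum was *Ttr*, at 127, 22.9 and 445 across TG and 14.3, 12.6 and 41.7 across WT, a log2 difference of 2.42. *Clic6* differed by 0.52, and *Folr1* and *Kl* by -0.12 and -0.07. The part of this tissue in the *Kcne2* values was not tested.

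The *Kcnh* genes encode the EAG, ERG and ELK channels, which activate slowly or recover fast from inactivation and damp excitability. All 8 were tested, 4 higher and 4 lower in TG. *Kcnh3* (Elk2), a forebrain subunit, was the highest at 5738, 5184 and 5343 normalized counts in TG-1, TG-2 and TG-3 and 5708, 4902 and 4675 in WT-1, WT-2 and WT-3. TG was above WT at each number, by 0.01, 0.08 and 0.19, within overlapping genotypes and a fitted difference of 0.09 (SE 0.09, 95% interval -0.12 to 0.31), 0.03 without WT-3 to 0.18 without WT-1. *Kcnh1* (Eag1) and *Kcnh7* (Erg3) differed by 0.07 (95% interval -0.14 to 0.28) and -0.04 (95% interval -0.24 to 0.16), and *Kcnh2* (Erg1), best known as the hERG channel of the heart, by 0.09 (95% interval -0.14 to 0.31). *Kcnh8* (Elk1), the lowest tested gene of the family per kb, was at 6.80, 4.98 and 8.30 normalized counts across TG and 8.09, 9.03 and 14.4 across WT. TG was lower at each number, but TG-3 exceeded WT-1, and the difference was -0.56 (SE 0.41, 95% interval -1.52 to 0.39), or -0.33 without WT-3.

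Calcium- and sodium-activated channels shape the afterhyperpolarization. Of 11 genes 10 were tested, 4 higher and 6 lower in TG, and 9 intervals lay within 1.5-fold. *Kcnmb4*, the neuronal beta4 subunit of BK channels, was the highest per kb at 1855, 1914 and 1958 normalized counts across TG and 1974, 1838 and 1737 across WT. The genotypes interleaved, with a difference of 0.05 (SE 0.08, 95% interval -0.13 to 0.22), and 31.5% of its exon bases are shared with opposite-strand transcripts. Its pore partner *Kcnma1* averaged 4093 ± 77.2 in TG and 3877 ± 229.8 in WT, a difference of 0.08 (95% interval -0.09 to 0.24). Of the SK channels, *Kcnn1* and *Kcnn2* were lower in TG at all 3 numbers and *Kcnn3* was higher on average, with differences of -0.09 (95% interval -0.28 to 0.11), -0.09 (95% interval -0.28 to 0.11) and 0.12 (95% interval -0.13 to 0.37). *Kcnt1* (Slack), the sodium-activated channel, was at 4654, 4586 and 4376 normalized counts across TG and 5170.3, 5041 and 4411 across WT. TG lay below WT at each number, the least so at number 3, and the difference was -0.10 (95% interval -0.29 to 0.09). *Kcnu1* (Slo3), which is best known from sperm, was at 106, 112 and 93.0 normalized counts in TG-1, TG-2 and TG-3 and 124, 126 and 125 in WT-1, WT-2 and WT-3. All TG libraries lay below the closely spaced WT libraries (WT SD 0.934), and the WT level was 1.20-fold the TG level. The difference was -0.27 (SE 0.14, 95% interval -0.58 to 0.05), -0.33 to -0.19 as single libraries were left out, and it did not pass the adjusted threshold.

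Inward rectifiers were the most abundant group per kb. All 15 genes were tested, 9 higher and 6 lower in TG, with a median difference of 0.02. *Kcnj4* (Kir2.3), a strong rectifier of forebrain neurons, was the highest at 3511, 3105 and 3329.7 normalized counts in TG-1, TG-2 and TG-3 and 3617, 2953 and 2777 in WT-1, WT-2 and WT-3. WT-1 and TG-1 were the high libraries, and the difference was 0.10 (SE 0.11, 95% interval -0.16 to 0.35). It was 0.21 without WT-1, 0.02 without WT-3 and 0.01 with both libraries numbered 3 left out. The G protein-gated subunits *Kcnj3* (GIRK1), *Kcnj6* (GIRK2) and *Kcnj9* (GIRK3), which carry slow inhibitory currents, differed by 0.02 (95% interval -0.18 to 0.22), 0.07 (95% interval -0.21 to 0.36) and -0.04 (95% interval -0.21 to 0.12), and 31.1% of the exon bases of *Kcnj3* are shared with an opposite-strand transcript. *Kcnj10* (Kir4.1), the potassium-buffering channel of astrocytes that oligodendrocytes also express, was at 5875, 6571 and 4865 normalized counts in TG-1, TG-2 and TG-3 and 6828, 6393 and 5502 in WT-1, WT-2 and WT-3. Both libraries numbered 3 were the lowest of all, and the summed astrocyte markers were lowest there too, at 127489 in TG-3 and 130556 in WT-3 against at least 136589.5 in the other 4. The difference of -0.12 (SE 0.13, 95% interval -0.41 to 0.18) was -0.22 without TG-2 and -0.00071 without TG-3, and stood beside the lower myelinating oligodendrocyte markers in TG, whose part in it was not tested. *Kcnj16* (Kir5.1), which pairs with Kir4.1, differed by -0.10 (95% interval -0.33 to 0.12). The vascular *Kcnj8* (Kir6.1) and the neuronal *Kcnj11* (Kir6.2), both of ATP-sensitive channels, differed by 0.07 (95% interval -0.35 to 0.49) and 0.11 (95% interval -0.19 to 0.41).

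*Kcnj13* (Kir7.1), a channel of choroid plexus and retinal pigment epithelium, was at 31.5, 28.0 and 32.6 normalized counts in TG-1, TG-2 and TG-3 and 21.7, 23.0 and 19.4 in WT-1, WT-2 and WT-3. All 3 TG libraries lay above all 3 WT libraries, with a TG level 1.44-fold the WT level. The difference was 0.50 (SE 0.23, 95% interval -0.03 to 1.03) and ranged from 0.44 to 0.57 as single libraries were left out. Of its exon bases, 49.1% are shared with *Gigyf2* on the opposite strand. The library kit marks strand, but the sources used here do not say how strand was used in counting. Of the 4 choroid plexus markers 2 were higher and 2 lower in TG on the log2 scale, as given for *Kcne2*, and all 4 overlapped between the genotypes. The part of that tissue in the *Kcnj13* values was not tested.

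Two-pore-domain channels carry the leak current at rest. Of 12 genes 10 were tested, 5 higher and 5 lower in TG. *Kcnk1* (TWIK-1), by far the highest, was at 2376, 2366 and 1991 normalized counts in TG-1, TG-2 and TG-3 and 2412, 2493 and 2074 in WT-1, WT-2 and WT-3. The libraries numbered 3 were the lowest in both genotypes and TG was below WT at each number, with differences of -0.02, -0.08 and -0.06 and a fitted difference of -0.05 (SE 0.11, 95% interval -0.30 to 0.19). *Kcnk9* (TASK-3), an acid-sensitive leak channel, was at 597, 554 and 673 normalized counts in TG-1, TG-2 and TG-3 and 528, 528 and 542 in WT-1, WT-2 and WT-3. Each TG library lay above the closely spaced WT libraries (WT SD 8.15), with a TG level 1.14-fold the WT level. Its difference was 0.19 (SE 0.10, 95% interval -0.04 to 0.41), 0.11 to 0.25 as single libraries were left out. The related *Kcnk3* (TASK-1) had the opposite sign, -0.12 (95% interval -0.46 to 0.23), with both libraries numbered 3 the highest. *Kcnk5* (TASK-2), named after its values were seen, was at 28.0, 21.8 and 33.1 normalized counts across TG and 19.5, 14.7 and 22.0 across WT. TG exceeded WT by 0.50, 0.54 and 0.57 at the 3 numbers, a narrow range, yet TG-2 lay just under WT-3 and the fitted value was 0.54 (SE 0.28, 95% interval -0.12 to 1.20). *Kcnk2* (TREK-1), a mechanosensitive channel, differed by 0.05 (95% interval -0.26 to 0.35).

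*Kcnrg*, which interferes with the assembly of Kv tetramers, was at 11.1, 5.27 and 11.2 normalized counts in TG-1, TG-2 and TG-3 and 12.3, 21.1 and 13.3 in WT-1, WT-2 and WT-3. The TG libraries lay below the WT libraries, narrowly at numbers 1 and 3 and widely at number 2, with log2 differences of -0.13, -1.82 and -0.23. The fitted difference of -0.73 (SE 0.42, 95% interval -1.69 to 0.24) was the largest in size of the 83 with all 6 libraries. It rested on number 2: it was -0.41 without TG-2, within -0.89 to -0.41 as single libraries were left out.

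**Figure D3:**
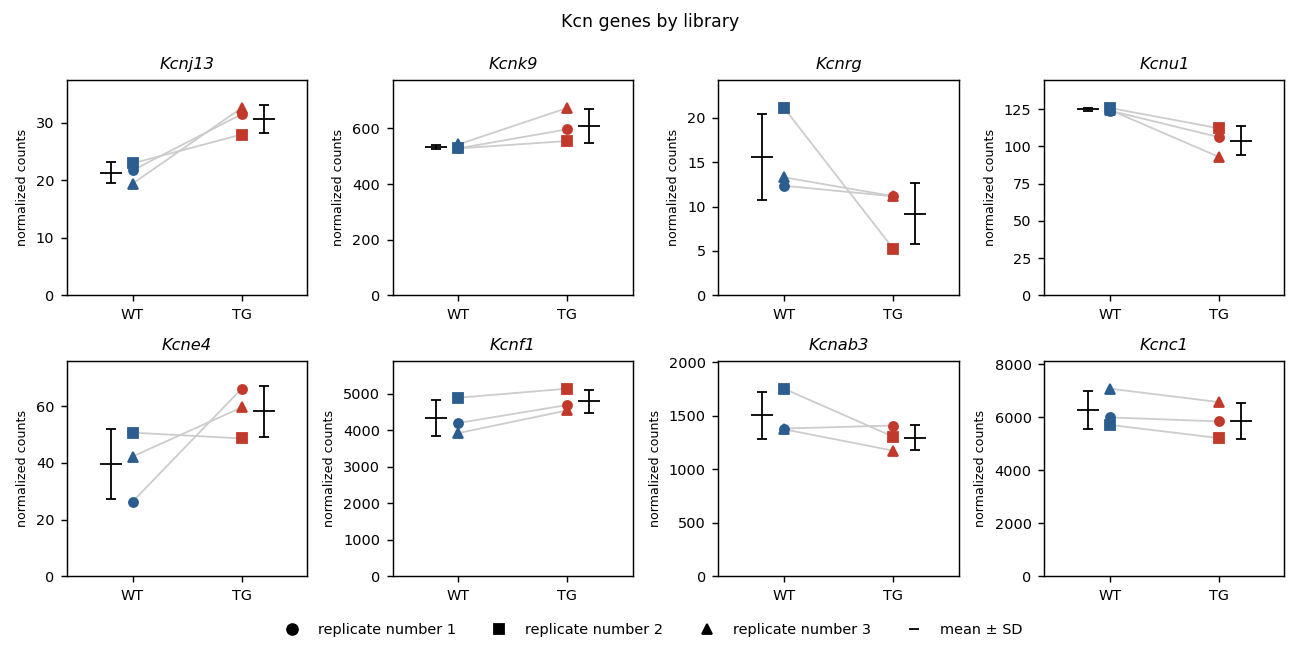
Normalized counts of 8 Kcn genes in each library, by genotype, with grey lines joining libraries of the same number and bars for the mean ± SD (n = 3). The genotypes do not overlap for *Kcnj13*, *Kcnk9*, *Kcnrg* and *Kcnu1* and overlap for *Kcne4*, *Kcnf1*, *Kcnab3* and *Kcnc1*.

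The libraries numbered 3 stood apart in both genotypes. In 26 of the 83 genes (31.3%) both libraries numbered 3 lay outside the range of the other 4, 11 above and 15 below, beside 40.9% of all genes tested. Lower in both were, among others, *Kcnab2*, *Kcnip2*, *Kcnj2*, *Kcnj10* and *Kcnk1*, and higher in both were *Kcnb2*, *Kcnc1*, *Kcnk2*, *Kcnk3*, *Kcnk12* and *Kcnq3*. For *Kcnj10*, for example, the library numbered 3 differed from the mean of the other pair by -0.35 in TG and -0.26 in WT on the log2 scale, for *Kcnc1* by 0.25 in TG and 0.27 in WT and for *Kcnip2* by -0.31 in TG and -0.30 in WT. The sign of this deviation was the same in both genotypes for 62 genes (74.7%, against 72.2% of all genes). Its median size was 0.15 on the log2 scale, against 0.085 for the genotype difference, and it was the larger value in 59 of the 83 genes. Across the 83 genes the deviations in TG and WT correlated with r = 0.64 (0.62 across all genes tested), a description over genes that share libraries and depth. Genes of one subfamily could deviate in opposite directions: *Kcnc1* was high and *Kcnc2* low, and *Kcnk3* high and *Kcnk1* low, in both libraries numbered 3.

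**Figure D4:**
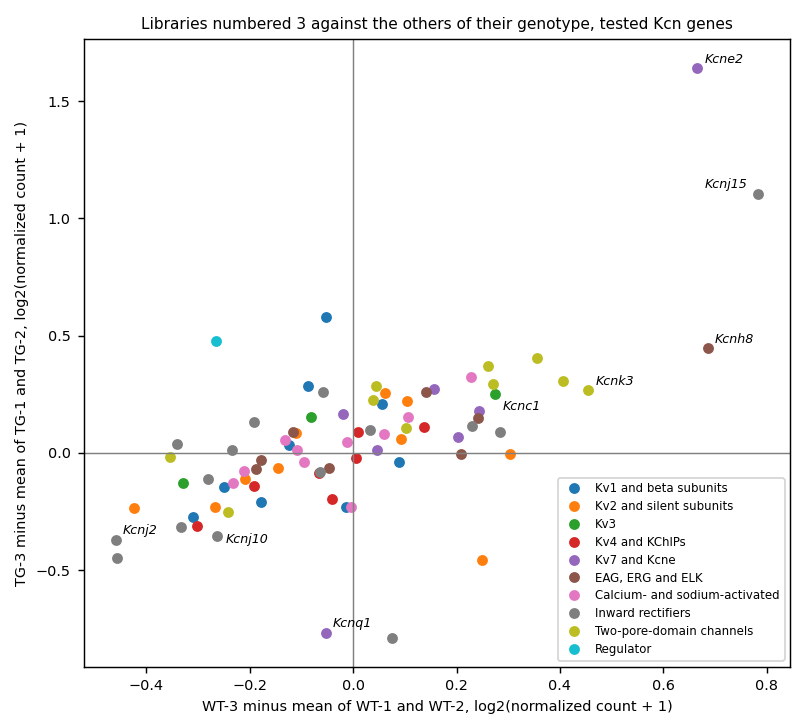
Deviation of the library numbered 3 from the mean of the other pair of its genotype, WT on the x axis and TG on the y axis, in log2(normalized count + 1), for tested Kcn genes coloured by subfamily. Most points lie in the lower left and upper right quadrants, where both genotypes deviate the same way.

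Channel partners without a Kcn symbol were followed as a list of 28 genes for accessory subunits, anchors and calmodulins, of which 27 had rows and all 27 were tested. None passed the adjusted threshold and 1 of 27 (*Cntn2*) had an unadjusted p below 0.05, beside 2.01% of all genes. By sign 14 were higher and 13 lower in TG, and the differences ran from -0.22 to 0.17. The Kv4 auxiliary peptidase-like subunits *Dpp6* and *Dpp10* differed by -0.01 (95% interval -0.23 to 0.21) and 0.08 (95% interval -0.21 to 0.36), and the scaffold *Dlg4* (PSD-95), which clusters Kv1 and Kir2 channels, by 0.07 (95% interval -0.20 to 0.34). *Cntnap2* and *Cntn2* hold Kv1 channels at the juxtaparanode of myelinated axons. *Cntnap2* differed by 0.05 (95% interval -0.18 to 0.27). *Cntn2* (TAG-1), the adhesion molecule that neurons and oligodendrocytes both make, was at 3215, 3610.0 and 3588 normalized counts in TG-1, TG-2 and TG-3 and 4063, 3871 and 4184 in WT-1, WT-2 and WT-3. All 3 TG libraries lay below all 3 WT libraries, with a difference of -0.22 (SE 0.08, 95% interval -0.40 to -0.04) and an adjusted p of 1.00, and the lower myelinating oligodendrocyte markers in TG stood beside it, with their part not tested. *Lrrc38*, a gamma subunit of BK channels, was the other partner without overlap, at 56.7, 64.3 and 70.1 normalized counts across TG and 70.5, 72.8 and 72.3 across WT, and these were 2 of 27 (7.41%), beside 6.02% of all genes. The calmodulin genes *Calm2* and *Calm3*, calcium sensors of SK and Kv7 channels, differed by 7e-05 (95% interval -0.22 to 0.22) and 0.07 (95% interval -0.11 to 0.24).

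The 7 genes under the filter were *Kcna7*, *Kcna10*, *Kcne1*, *Kcne3*, *Kcnk7*, *Kcnk15* and *Kcnn4*, with 0 to 7.89 normalized counts in any library and means of 1.64 to 3.27. Of these, 5 were listed at 0 in at least 1 library. They were left out of the test. When all rows were tested without the filter, none of the 7 had an unadjusted p below 0.05 (beside 2.18% of all genes), and their 95% intervals reached from -3.28 to 2.61. *Kcnk16*, *Kcnk18*, *Kcnmb3* and *Kcnv2*, which complete the 94 Kcn genes of the annotation, were not analysed here.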

How the data were processed

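RNA of the mPFC was sequenced as 6 libraries (3 TG, 3 WT), each a pool. Per the study's methods, the authors estimated transcript abundance with Salmon and GC bias correction on GRCm38, summed it to genes, and divided the estimated counts by DESeq2 size factors. The submitters' processing notes give Salmon 0.9.1, R 3.6.0 and DESeq2 1.19.11. The deposited values are therefore a normalized signal per gene, not counts: at most 23.1% of low values in a library were near multiples of one step, so reads could not be recovered and counting intervals are not given.

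Values were analysed as log2(normalized count + 1) with limma 3.58.1 in R 4.3.3 (lmFit, eBayes with a trend), genotype as the only term, for the 16714 genes averaging 5 or more, as a two-sided test whose p was adjusted by Benjamini-Hochberg and called below 0.05. Fold changes on this scale understate those of low genes. Levels per kb used merged exons of GENCODE M21 (GRCm38, the build of the files), in which 18231 of 18254 rows were found. Exon bases shared with another gene were counted for each member: 28 shared some and 7 over 10%, 6 of them with the opposite strand and 1 (*Kcnk4*, with *Catsperz*) with the same strand. Reads of such bases may be split wrongly.

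Deviations from the genotype means correlated with 0.302, 0.332 and 0.616 between libraries of the same number 1, 2 and 3. Unlike numbers gave -0.443 to 0.266, with 0.227 and 0.266 between numbers 1 and 2. Deviations within a genotype cancel, so a shared shift of number 3 also makes numbers 1 and 2 correlate, matched or not. The study's methods count 3 pairs of RNA samples but do not say which libraries pair. Whether equal numbers mark pairs was therefore not settled. A fit with the number as a block was run beside the main one. Other alternatives were pseudocounts of 0.1 and 5, no filter or a minimum of 50, upper-quartile and quantile scaling, eBayes without a trend or robust, a term for the libraries numbered 3, an empirical null, both libraries numbered 3 left out, and each library left out.

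Per-library values are given for the highest gene per kb and the gene of smallest p in each subfamily, for members past the threshold, and for those without overlap between genotypes. Other genes named were chosen for their known roles. Some genes are counted but not reported here by name. The members and lists were chosen with earlier results of these data known. The fits were tested on simulated data.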

Additional observations from a re-analysis of the deposited data

How the results depend on the processing

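No potassium channel gene and no channel partner passed the adjusted threshold under any alternative run, and the lowest adjusted p of a member was 0.409 (*Kcnj13*, empirical null, within 0.409 to 1.00 over the alternatives). The number of all genes that passed was 0 as reported, 1 with the robust option, the replicate block, the term for the libraries numbered 3 or both of those libraries left out, 26 under the empirical null, and 0 to 1 as single libraries were left out, the 1 without WT-3. At an unadjusted p below 0.05, the 336 genes became 833 with the replicate block, 717 with the number 3 term, 1215 under the empirical null, 484 without a trend and 468 with both libraries numbered 3 left out. Over single libraries left out they were 219 (without TG-1) to 417 (without WT-3). For the potassium channel genes that count moved from 0 to 3 without a trend (*Kcnj13*, *Kcnk5*, *Kcnu1*), 3 with the replicate block (*Kcnab3*, *Kcnf1*, *Kcnk9*), 2 with the number 3 term (*Kcnab3*, *Kcnk9*) and 7 under the empirical null (*Kcnab3*, *Kcne4*, *Kcnj13*, *Kcnk5*, *Kcnk9*, *Kcnrg*, *Kcnu1*), beside 2.9%, 4.98%, 4.29% and 7.27% of all genes in these fits, and it was 0 to 2 as single libraries were left out (*Kcns3* without TG-1, *Kcna5* without TG-2, *Kcna1* and *Kcnk10* without WT-1, and *Kcne4* and *Kcnf1* without WT-2). For the partners it was 1 as reported (*Cntn2*) and 0 to 2, with 0 without WT-1 or WT-3 and 2 without WT-2. The cause of these moves was not tested. The block changed no other call.

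*Shank3* passed the adjusted threshold, at 1.18, with the robust option, the block, the number 3 term and the empirical null, at 1.14 with both libraries numbered 3 left out, and at 1.09 without WT-3, within 1.09 to 1.24 over single libraries left out.

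Of the 83 members, 42 turned sign in at least 1 of the fits that left out a single library. Among the members named for their level, p or lack of overlap, the sign turned for *Kcnmb4*, to -0.0155 with both libraries numbered 3 left out and, over single libraries left out, for *Kcnab2* (-0.0605 to 0.134), *Kcnip3* (-0.0356 to 0.0876) and *Kcnk1* (-0.132 to 0.032). The medians over both lists moved by less than their spread between libraries under all alternatives, but their signs were not stable. The potassium channel median of 0.024 turned to -0.017 with both libraries numbered 3 left out, -0.01 without WT-1 and -0.004 without TG-3. That of the partners ran from -0.045 without WT-3 to 0.05 without WT-2. With 3 pools a genotype the intervals of the 12 genes with means under 50 were wide, none of them within 1.5-fold.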
